A study of Drosophila melanogaster with 8 samples.

Results

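The nuclear-encoded transcripts recovered with the J2 antibody from the mitochondrial fraction of larvae were compared between the dmpnpaseKO and the control genotype. The members are all genes of the deposited table that are neither encoded in mitochondrial DNA nor named as rRNA, which leaves 13935 of 13970 genes. The remaining 35 are 13 mitochondrial genes and 22 rRNA genes and pseudogenes of the nucleus. J2 binds double-stranded RNA whatever its sequence, and the series holds 8 libraries of J2-recovered RNA, with 2 libraries for each combination of genotype and fraction. The 4 mitochondrial libraries carry the comparison, and the 4 cytosolic ones are set beside it where they bear on a result. Control larvae had the genotype ;; and dmpnpaseKO larvae ;;dmpnpase-/dmpnpase-, both in the wDah background and both taken 4 days after egg laying. The knockout is a CRISPR/Cas9 line with a frame shift in CG11337, the fly gene for polynucleotide phosphorylase, and it is larval lethal when homozygous. The fractions came from larvae and not from a dissected tissue, so each library mixes many tissues, and fewer cells of a tissue cannot be told apart from less RNA per cell. The labels do not say whether the 2 libraries of a group came from separate collections of larvae, so every p-value measures only the spread between these libraries.

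Polynucleotide phosphorylase is an exoribonuclease that degrades RNA inside mitochondria together with the helicase SUV3. Many nuclear-encoded mRNAs are also found in a mitochondrial pellet. Those for mitochondrial proteins can be translated at the outer membrane, and ribosomes, rough endoplasmic reticulum and other membranes sediment with mitochondria. In larvae before metamorphosis the fat body makes storage proteins, the epidermis makes cuticle proteins and the salivary glands make glue proteins, each from a few very abundant mRNAs whose levels change steeply with larval age.

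TPM, the unit of the deposited values, are the share of each gene in a library after correction for transcript length. Nuclear-encoded genes took only 0.132% and 0.0755% of the TPM in control mitochondria replicates 1 and 2, against 1.18% and 0.586% in the dmpnpaseKO replicates. Each library was therefore rescaled so that its nuclear-encoded genes sum to 1000000, and these values are called nuclear TPM below. They say which nuclear mRNAs took a larger or smaller part of the nuclear-encoded RNA recovered with J2, and not whether the amount of an mRNA changed. The series holds no library made without J2. Recovery as double-stranded RNA, background carried along and abundance in the fraction therefore cannot be told apart. In control mitochondria 8725 and 4814 nuclear-encoded genes were above 0, and in dmpnpaseKO mitochondria 11019 and 7649. TPM do not keep read depth, and reads were not used here. The controls were the less alike pair, with a Pearson correlation over the genes tested of 0.674 on the log2 scale, against 0.936 for the dmpnpaseKO pair (Spearman 0.517 and 0.874). CG11337, listed under the symbol PNPase, was at 14.96 and 0 nuclear TPM in the controls and at 3.51 and 0 in dmpnpaseKO, too low to check the genotype labels.

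A gene was tested when its mean over the 4 libraries reached 100 nuclear TPM, which 1364 genes did. Of these, 905 reached that mean in both genotypes, 241 only in the controls and 218 only in dmpnpaseKO. Another 10175 were above 0 in some library but under this filter, and 2396 were at 0 in all 4. With limma on log2(nuclear TPM + 100) and Benjamini-Hochberg adjustment over the 1364 genes, 23 mRNAs were lower in dmpnpaseKO (1.69% of those tested) and 4 were higher (0.293%) at an adjusted p under 0.05, 1.98% in either direction. Of the 23, 21 passed the filter only through the controls, where they are high, and of the 4, Cyt-b5-r passed it only through dmpnpaseKO. In 310 genes both dmpnpaseKO libraries lay below both controls (22.7%), in 492 above both (36.1%), and in 562 the genotypes overlapped. The median log2 fold change was 0.11, with quartiles of -0.48 and 0.76. A fold change on this scale understates the change of low genes, and the exact permutation test of a single gene, with 2 libraries against 2, cannot give a p below 0.333. Scaling on the rRNA pseudogenes instead would add 1.64 to this median and call 1167 genes higher and 24 lower, so every direction given here is relative to the other nuclear mRNAs of the same library.

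**Figure D1:**
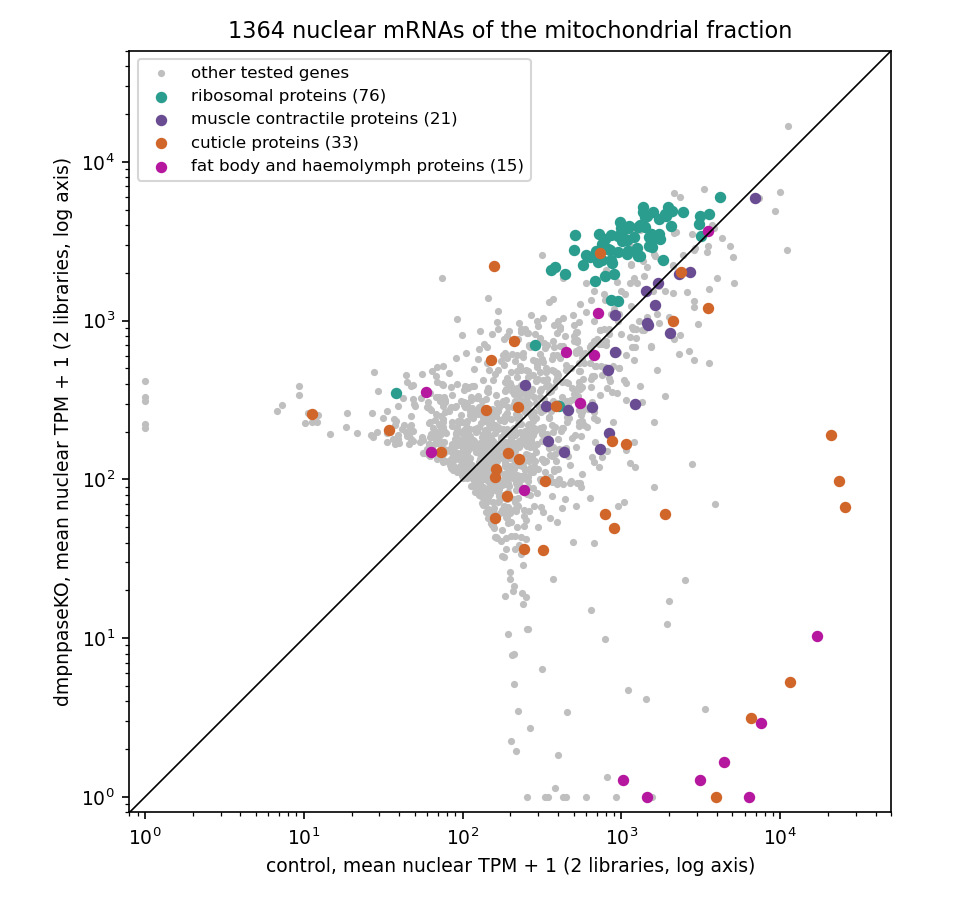
Mean nuclear TPM + 1 of the 1364 tested genes in control mitochondria (horizontal, log axis, 2 libraries) and dmpnpaseKO mitochondria (vertical, log axis, 2 libraries), with equal values on the diagonal. The ribosomal protein mRNAs form a compact cloud above the diagonal, while storage protein and larval cuticle protein mRNAs of the fat body and epidermis reach far below it.

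The 23 mRNAs that fell had control means from 25658 nuclear TPM for Lcp3 down to 492 for Uro. They took 17.8% and 12.8% of the nuclear TPM in the 2 controls, and 0.0922% and 0.0560% in the 2 dmpnpaseKO libraries. Their lowest control value was 481 nuclear TPM, and their highest dmpnpaseKO value was 296. In 4 of them both dmpnpaseKO libraries were listed at 0, and in 10 more 1 of the 2 was. By function 16 of the 23 belong to 3 tissues, with 7 fat body and haemolymph proteins, 7 cuticle proteins and 2 salivary glue proteins. The 23 had a median exonic length of 792 bases, against 1677 over the 1319 tested genes that have a length. Lsp2, Lsp1gamma, Lsp1alpha, Lsp1beta and Fbp1 were longer than 1677, from 2477 in Lsp2 to 3465 in Fbp1.

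**Figure D2:**
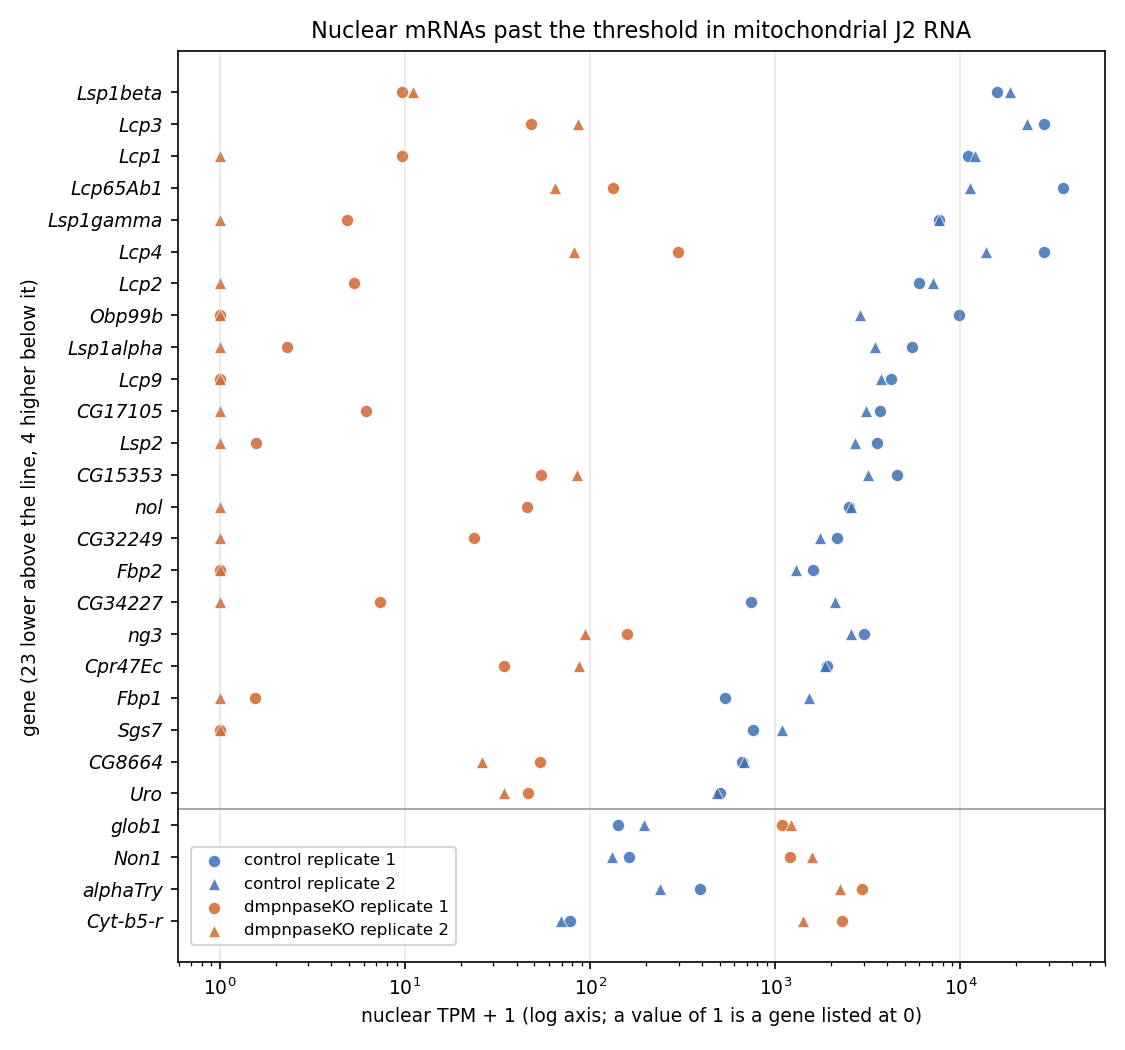
Nuclear TPM + 1 (log axis) of the 27 mRNAs past the threshold in each of the 4 mitochondrial libraries, with controls in blue, dmpnpaseKO in orange, circles for replicate 1 and triangles for replicate 2. Points at 1 are genes listed at 0. The blue and orange points of every gene are separate, with the 23 lower genes above the line and the 4 higher genes below it.

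The storage proteins of the larval fat body were among the largest falls. The list of fat body and haemolymph proteins has 17 genes, of which 15 were tested and 7 fell, against 1.69% of all tested genes. Both dmpnpaseKO libraries were below both controls in 9 of the 15 (22.7% of all tested genes), above both in 2 (36.1%) and overlapped them in 4. The 2 were singled out afterwards. Apoltp was at 55.6 and 60.1 nuclear TPM in the controls and 288 and 419 in dmpnpaseKO, and regucalcin at 693 and 721 against 1046 and 1199. The whole list took 5.09% and 4.43% of nuclear TPM in the controls and 0.615% and 0.793% in dmpnpaseKO. The median log2 fold change of its tested members was -0.86, and it was 0.75 with scaling on the rRNA pseudogenes, -0.50 without control replicate 1 and -3.94 with a filter of 500.

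Lsp1beta encodes a subunit of the hexameric larval serum protein 1, which the fat body secretes and stores as an amino acid reserve for metamorphosis. It is annotated on chromosome 2L from 898500 to 901316 of BDGP6, on the plus strand. It stood at 15762 and 18535 nuclear TPM in the controls and at 8.62 and 10.1 in dmpnpaseKO. The means differ 1836-fold, and the log2 fold change was -7.30 (SE 0.34, limma adjusted p = 0.00164). The genes of the other subunits lie on other chromosomes. Lsp1gamma, on 3L from 66430 to 68995, was at 7630 and 7625 in the controls and at 3.86 and 0 in dmpnpaseKO (log2 fold change -6.24, adjusted p = 0.00176). Lsp1alpha, on X from 12490291 to 12492982, was at 5489 and 3434 against 1.31 and 0 (-5.46, adjusted p = 0.00329). For all 3 subunits, each dmpnpaseKO library lay far below each control.

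Lsp2, the second storage hexamerin, was at 3548 and 2677 nuclear TPM in the controls and at 0.557 and 0 in dmpnpaseKO (log2 fold change -4.99, adjusted p = 0.00311). Fbp1, the receptor through which the fat body takes hexamerins back up before pupation, was at 536 and 1524 against 0.55 and 0 (adjusted p = 0.0498). Fbp2, a fat body protein related to alcohol dehydrogenase, was at 1603 and 1286 in the controls and listed at 0 in both dmpnpaseKO libraries (adjusted p = 0.00484). Obp99b, an odorant-binding protein that is secreted into the haemolymph, was at 9882 and 2882 in the controls and listed at 0 in both dmpnpaseKO libraries (adjusted p = 0.0143). The hexamerins and the receptor that takes them up were thus low in the same 2 libraries.

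No difference was detected for another major product of the fat body. apolpp, the precursor of the lipid transport apolipoproteins, was at 2894 and 4111 nuclear TPM in the controls and at 2864 and 4459 in dmpnpaseKO, where the genotypes overlapped (log2 fold change 0.05, SE 0.38, adjusted p = 0.939). Summed over the 7 fat body markers, apolpp among them, the controls held 37460 and 39193 nuclear TPM and dmpnpaseKO 2879 and 4469, nearly all of the latter being apolpp. In the cytosolic fraction Lsp1beta was at 4078 and 25615 nuclear TPM in the controls and at 28.6 and 0 in dmpnpaseKO. Lsp1gamma went the same way in cytosol replicate 1, at 1714 in the control and 29.6 in dmpnpaseKO, but dmpnpaseKO cytosol replicate 2 listed it at 16816, more than the 9892 of control replicate 2. That library had only 39 nuclear-encoded genes above 0.

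Larval cuticle protein mRNAs were the second group among the falls, although other members of the list lay above the controls. Of 126 cuticle protein genes 33 were tested, 7 fell (1.69% of all tested genes) and 0 rose past the threshold. Both dmpnpaseKO libraries were below both controls in 16 of the 33 (22.7% of all tested genes) and above both in 6 (36.1%). The list took 13.8% and 8.44% of nuclear TPM in the controls and 1.70% and 1.28% in dmpnpaseKO. Its median log2 fold change was -0.73, with 1.07 for scaling on the rRNA pseudogenes and -2.88 for a filter of 500.

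Lcp1, Lcp2, Lcp3 and Lcp4 encode larval cuticle proteins and sit side by side on chromosome 2R, between 8430115 and 8438495. Lcp3 was at 28320 and 22997 nuclear TPM in the controls and at 46.9 and 84.8 in dmpnpaseKO (log2 fold change -7.28, SE 0.35, adjusted p = 0.00164), a 390-fold difference of means. Lcp4 was at 28300 and 13797 against 296 and 80.7 (-6.21, adjusted p = 0.00809). Lcp1 was at 11053 and 11915 against 8.63 and 0 (-6.80, adjusted p = 0.00164). In Lcp2 the controls were at 6008 and 7147 and dmpnpaseKO at 4.27 and 0 (-6.03, adjusted p = 0.0019). The 4 neighbours were all lower by more than 100-fold in the means, but Lcp1 and Lcp2 are close copies whose reads the quantification may divide arbitrarily.

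The falling cuticle genes were not limited to that cluster. Lcp65Ab1, on 3L from 6149548 to 6149960, was the most abundant of all in control replicate 1, at 35636 nuclear TPM, with 11296 in control replicate 2 and 131 and 63.6 in dmpnpaseKO (log2 fold change -6.70, SE 0.62, adjusted p = 0.00809). Its near copy Lcp65Ab2 was listed at 0 in all 4 libraries, so the value may belong to both. Lcp9 was at 4227 and 3712 in the controls and listed at 0 in both dmpnpaseKO libraries (adjusted p = 0.00241). Cpr47Ec, which carries a chitin-binding domain, was at 1908 and 1844 against 33.0 and 85.7 (-3.65, adjusted p = 0.00829).

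The Lcp65Ag genes, which are near-identical copies on 3L, lay on different sides of the controls. Lcp65Ag3 was at 313 and 0 nuclear TPM in the controls and at 2705 and 1715 in dmpnpaseKO (log2 fold change 3.47, SE 0.74, adjusted p = 0.0811), which does not pass the threshold. Lcp65Ag2 was at 483 and 984 against 2767 and 2590. Lcp65Ag1 was below both controls, at 2461 and 1763 in the controls and at 1172 and 821 in dmpnpaseKO. Both of these last genes were singled out after their values were seen, and reads of the 3 copies cannot be assigned to one of them with certainty.

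Glue protein mRNAs of the salivary gland were the third group. Of the 6 tested, 2 fell (1.69% of all tested genes), 4 had both dmpnpaseKO libraries below both controls (22.7% of all tested genes) and 0 were above. Their median log2 fold change was -2.51, with -0.84 for scaling on the rRNA pseudogenes and -1.17 without control replicate 2. Sgs7, a glue protein with which the larva fixes itself before pupariation, was at 761 and 1087 nuclear TPM in the controls and listed at 0 in both dmpnpaseKO libraries (adjusted p = 0.00809). ng3, a new glue gene inside an intron of dnc on X, was at 3028 and 2564 against 157 and 92.7 (log2 fold change -3.70, adjusted p = 0.00867). Sgs3 was also listed at 0 in both dmpnpaseKO libraries, but its controls of 240 and 2874 were far apart and it did not pass (adjusted p = 0.123).

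The other 7 mRNAs that fell are in none of the lists. Uro encodes urate oxidase, the enzyme of the Malpighian tubules that degrades uric acid, and was at 503 and 481 nuclear TPM in the controls and at 45.2 and 33.1 in dmpnpaseKO (log2 fold change -2.09, SE 0.28, adjusted p = 0.0325). It had the smallest fall of the 23. CG17105 was at 3673 and 3083 against 5.15 and 0 (adjusted p = 0.00276), and CG15353 at 4557 and 3173 against 53.1 and 84.0 (adjusted p = 0.00517). The controls of nol were at 2509 and 2559 and its dmpnpaseKO libraries at 44.8 and 0 (adjusted p = 0.00484). CG32249 was at 2149 and 1739 against 22.5 and 0 (adjusted p = 0.00484). In all of these the controls were close together and far above dmpnpaseKO. CG34227 was at 739 and 2106 against 6.34 and 0 (adjusted p = 0.0392). CG8664 was at 660 and 678 against 52.5 and 24.9 (adjusted p = 0.0194). No dmpnpaseKO value of the 7 was above 84.0. Of the 23, 7 overlap an annotated gene on the same or the other strand, and the deposited values do not separate strands.

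All 23 had the same sign in each of 14 alternative settings in which they were tested. Leaving out either dmpnpaseKO library left 0 genes past the threshold in either direction by limma, with a smallest adjusted p of 0.0554 without replicate 1 and 0.0576 without replicate 2, while 46 and 36 genes were lower at an unadjusted p under 0.05. Under the other 12 settings Lsp1beta, Lcp1, Lcp2, Lcp3, Lcp9 and CG17105 passed every time. Without control replicate 1, 206 genes were lower and 272 higher, and without control replicate 2, 48 were lower and 9 higher.

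The 4 mRNAs that rose share no list. Cyt-b5-r, a cytochrome b5-related protein with a fatty acid desaturase domain, lies on 2L from 16788774 to 16790721. It was at 77.3 and 68.5 nuclear TPM in the controls and at 2287 and 1406 in dmpnpaseKO, a 25.3-fold difference of means (log2 fold change 3.46, SE 0.38, adjusted p = 0.0143). Non1, a nucleolar GTPase of ribosome assembly, was at 160 and 129 against 1200 and 1583 (2.60, SE 0.34, adjusted p = 0.0318). glob1, a haemoglobin of the fly, was at 140 and 194 against 1090 and 1220 (2.24, SE 0.33, adjusted p = 0.0469). alphaTry, a trypsin of the midgut, was at 393 and 238 against 2946 and 2234 (2.71, SE 0.39, adjusted p = 0.0433). In all 4 genes the 2 dmpnpaseKO values lay several-fold above both controls, and their sum was 0.0770% and 0.0629% of nuclear TPM in the controls and 0.752% and 0.644% in dmpnpaseKO. The trypsin genes are close copies, so the share of alphaTry within them is uncertain. In cytosol replicate 1, Cyt-b5-r was at 82.4 in the control and 2813 in dmpnpaseKO, and glob1 at 0 and 2277. In cytosol replicate 2 both were listed at 0 in the control and in dmpnpaseKO. These rises depended on the fit, since 0 of the 4 passed in all 12 settings that keep both dmpnpaseKO libraries.

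Ribosomal protein mRNAs, which are co-regulated and very abundant transcripts, were higher in dmpnpaseKO as a list, although none passed the threshold alone. Of 85 ribosomal protein genes 76 were tested. Both dmpnpaseKO libraries were above both controls in 67 of these (36.1% of all tested genes), overlapped them in 9 and were below both in 0. The fold change was above 0 in 75, and the median log2 fold change was 1.43, against 0.11 over all tested genes. Together the 85 genes took 9.21% and 10.0% of nuclear TPM in the controls and 24.5% and 24.6% in dmpnpaseKO. With limma 0 of them passed an adjusted p of 0.05, while 62 had an unadjusted p under 0.05, and 40 passed with a filter of 500. Without control replicate 1, 46 of the 76 passed, and without control replicate 2, 2 did, where the spread comes from the dmpnpaseKO pair alone and the lone control is assumed to vary like it.

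The 45 tested large-subunit genes had a median log2 fold change of 1.57 and the 31 small-subunit genes 1.27. RpLP2, an acidic protein of the ribosomal stalk, had the largest difference, at 865 and 157 against 3994 and 2881 (2.81, SE 0.69, adjusted p = 0.0870). RpL3, a core protein of the large subunit, was at 1894 and 2059 against 4664 and 5689 (1.34, adjusted p = 0.0832). In RpLP2 the 2 controls differed more than 5-fold from each other, and in RpL3 they nearly coincided.

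Some of the most abundant ribosomal protein mRNAs were closer to the controls. RpL41 was at 4449 and 3910 nuclear TPM in the controls and at 7991 and 4016 in dmpnpaseKO (log2 fold change 0.43, adjusted p = 0.533). RpS23 was at 1666 and 5504 against 4685 and 4703 (0.61, adjusted p = 0.542), with both dmpnpaseKO libraries between the controls. RpS3A had the same arrangement, at 1388 and 4789 against 3792 and 4318 (0.62, adjusted p = 0.546). RpL34a, singled out afterwards as the 1 member with a negative log2 fold change, was at 469 and 340 against 407 and 169. In cytosol replicate 1 the ribosomal protein genes took 2.13% of nuclear TPM in the control and 15.5% in dmpnpaseKO, while dmpnpaseKO cytosol replicate 2 listed them all at 0.

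**Figure D3:**
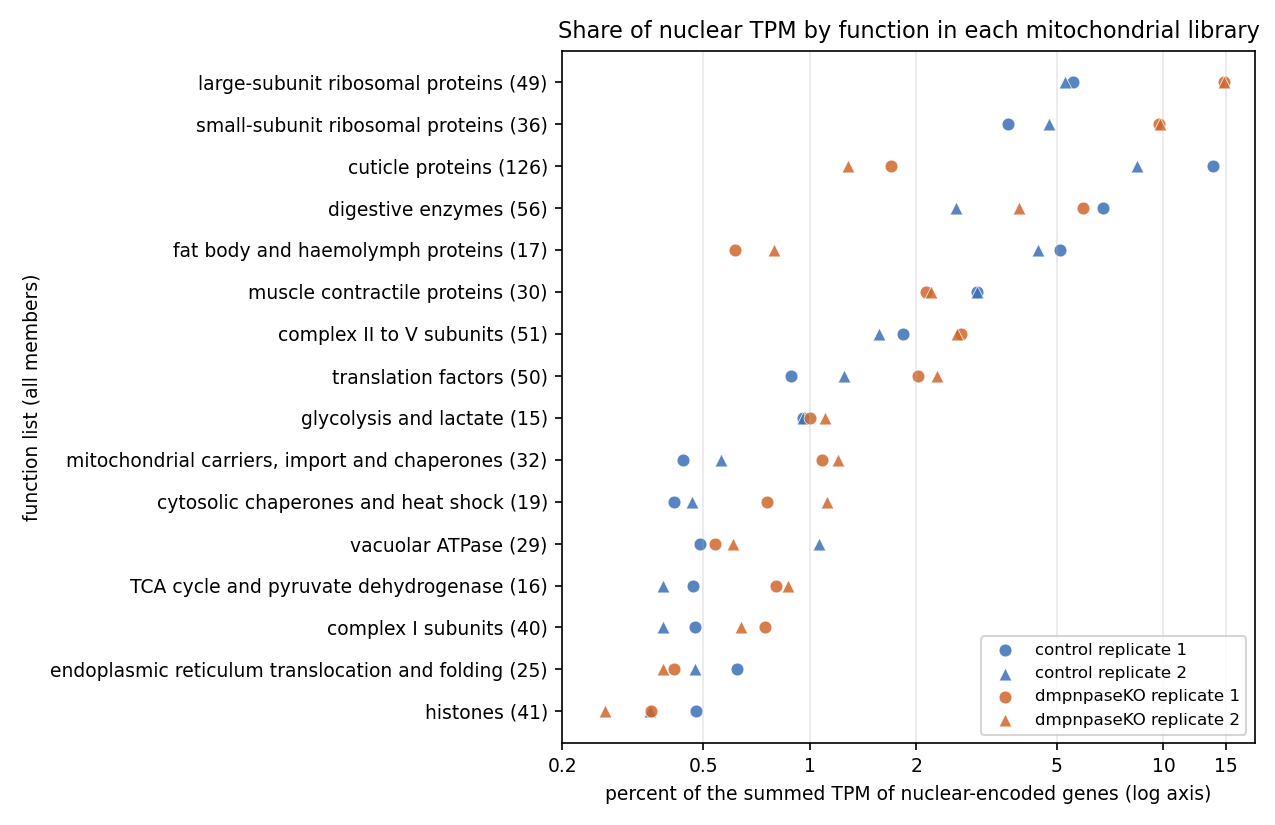
Percent of the summed TPM of nuclear-encoded genes (log axis) taken by each list with 10 or more tested members, in each mitochondrial library, with controls in blue, dmpnpaseKO in orange, circles for replicate 1 and triangles for replicate 2. Large-subunit ribosomal proteins took 5.56% and 5.28% in the controls and 14.8% in each dmpnpaseKO library, and cuticle proteins took 13.8% and 8.44% against 1.70% and 1.28%.

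Of 31 tested translation factors, 22 had both dmpnpaseKO libraries above both controls (36.1% of all tested genes), 2 below, and 0 passed the threshold, and the median log2 fold change was 0.77. eEF2, the translocase of elongation, was at 2029 and 2283 nuclear TPM in the controls and 6032 and 6644 in dmpnpaseKO (log2 fold change 1.51, SE 0.30, adjusted p = 0.0792). eIF4A, the helicase of initiation, was at 762 and 828 against 1986 and 2172 (1.28, adjusted p = 0.0938). In both genes the pairs were tight and well apart. Elongation factor eEF1gamma was at 1266 and 1991 against 2308 and 2786 (0.64, adjusted p = 0.340).

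The lists for the respiratory chain, the tricarboxylic acid cycle and mitochondrial carriers had medians above that of all tested genes and below those of the ribosomal proteins. No member of the respiratory chain, tricarboxylic acid cycle or carrier lists passed the threshold. Both dmpnpaseKO libraries were above both controls in 17 of 28 complex I subunits (36.1% of all tested genes). For complexes II to V it was 20 of 35. The 2 median log2 fold changes were 0.64 and 0.68, which became 0.48 and 0.43 without control replicate 2. Without control replicate 1 the complex I median was 0.93. Among the 17, ND-ACP, ND-51, ND-19, ND-49 and ND-MWFE were listed at 0 in control replicate 2. So were ND-PDSW, ND-B14.5A, ND-18, ND-B14.5B and ND-13B. The count was 12 of 15 for the tricarboxylic acid cycle with pyruvate dehydrogenase (median 0.61) and 7 of 14 for carriers, import and chaperones (median 0.64). Between 1 and 2 members of each of these 4 lists were below both controls. With only the 337 genes of a mean of at least 500 nuclear TPM, the complex I median was -1.33 and rested on ND-MLRQ alone.

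sesB, the adenine nucleotide translocase that exchanges ADP for ATP across the inner membrane, was at 1282 and 1453 nuclear TPM in the controls and at 3805 and 4567 in dmpnpaseKO (log2 fold change 1.54, SE 0.32, adjusted p = 0.0811). Men, a malic enzyme counted in the tricarboxylic acid cycle list, was at 334 and 205 against 1033 and 1138 (1.70, SE 0.36, adjusted p = 0.0811). Men-b, another malic enzyme of that list, was singled out afterwards. It was below both controls, at 140 and 199 against 70.9 and 84.3. porin, the voltage-dependent anion channel of the outer membrane, was at 315 and 477 against 1189 and 811 (1.15, adjusted p = 0.157). In sesB, Men and porin both dmpnpaseKO libraries were above both controls.

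The most abundant ATP synthase subunits also had both dmpnpaseKO libraries above both controls. ATPsynC, which forms the rotor ring, was at 2111 and 2275 nuclear TPM in the controls and 3293 and 3889 in dmpnpaseKO (log2 fold change 0.68, adjusted p = 0.244). blw, the alpha subunit, was at 1387 and 1818 against 2334 and 2912 (0.68, adjusted p = 0.287). ATPsynbeta, the catalytic beta subunit, was at 1577 and 737 against 2488 and 2082 (1.00, adjusted p = 0.240). These 3 genes were separate between the genotypes. kdn, citrate synthase, was at 511 and 778 against 1075 and 1624 (0.96, adjusted p = 0.219). Complex I held the exception among the abundant subunits, since ND-MLRQ was at 862 and 1271 in the controls and at 606 and 196 in dmpnpaseKO (-1.33, adjusted p = 0.203).

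The machinery that acts on mitochondrial nucleic acids could not be followed at this level. Of 70 mitochondrial ribosomal protein genes 1 passed the filter, and of 16 genes for mitochondrial DNA and RNA maintenance 0 did. TFAM, which packages mitochondrial DNA, was at 52.2 and 77.5 nuclear TPM in the controls and at 45.0 and 83.6 in dmpnpaseKO. ClpX, the ATPase partner of the matrix protease, was at 63.9 and 53.2 against 72.8 and 73.2. Of 10 genes of RNA interference and double-stranded RNA editing 4 were tested, with a median log2 fold change of 0.00. In 1 both dmpnpaseKO libraries were above both controls (36.1% of all tested genes), and in 0 below both (22.7%). Dcr-2, AGO2 and r2d2 were under the filter, so that median does not cover them. Tudor-SN, a nuclease of the RNA-induced silencing complex, was at 164 and 215 against 222 and 193 (0.09, adjusted p = 0.860).

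Chaperones stood next to the ribosome by median. Of 13 tested cytosolic chaperones and heat shock proteins, 11 had both dmpnpaseKO libraries above both controls (36.1% of all tested genes), 0 below, and 0 passed, with a median log2 fold change of 1.06 that was 0.66 without control replicate 2. Hsp83, the fly Hsp90, was at 537 and 805 nuclear TPM in the controls and at 1153 and 1901 in dmpnpaseKO (1.06, SE 0.42, adjusted p = 0.201). Hsc70-4, the constitutive Hsp70, was at 1488 and 2772 against 2983 and 4111 (0.75, adjusted p = 0.324). The inducible Hsp70Ab was at 545 and 26.1 against 555 and 1088 (1.63, adjusted p = 0.287), and its gene has near-identical copies. The genotypes were separate in all 3, by a narrow margin in Hsp70Ab.

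Genes of the mitochondrial stress response were above both controls in 6 of 9 tested (36.1% of all tested genes). Their median log2 fold change was 0.68 and 0 passed the threshold. crc, the fly ATF4, was at 360 and 693 nuclear TPM in the controls and at 802 and 893 in dmpnpaseKO (0.65, adjusted p = 0.369). Xrp1, a transcription factor of the same response, was at 494 and 798 against 565 and 715 (0.01, adjusted p = 0.986). Thor, the translation repressor 4E-BP, was singled out after its values were seen, at 224 and 243 against 870 and 823. GstD1, a glutathione transferase, was at 1278 and 667 against 1042 and 1148 (0.22, adjusted p = 0.773).

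Contractile proteins of muscle took the opposite side. Of 21 tested, 15 had both dmpnpaseKO libraries below both controls (22.7% of all tested genes) and 1 above, 0 passed the threshold, and the median log2 fold change was -0.42, which turned to 2.14 with scaling on the rRNA pseudogenes. Act57B, a muscle actin and the most abundant of them, was at 6903 and 6928 nuclear TPM in the controls and at 5649 and 6119 in dmpnpaseKO (log2 fold change -0.23, SE 0.26, adjusted p = 0.588). Mhc, the muscle myosin heavy chain, was at 3189 and 2241 against 2135 and 1896 (-0.39, adjusted p = 0.509). up, a troponin T, was at 2352 and 2246 against 1759 and 2184 (-0.22, adjusted p = 0.691). The differences of these 3 were small beside those of the storage and cuticle mRNAs. Other members fell further, and log2 fold changes over the 21 ran from -1.72 to 0.52. With limma 5 of the 21 had an unadjusted p under 0.05, and the smallest adjusted p was 0.0815. Summed over the 6 muscle markers, the controls held 16077 and 15806 nuclear TPM and dmpnpaseKO 12392 and 13085.

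Digestive enzymes scattered in both directions. Of 32 tested, 10 were above both controls (36.1% of all tested genes), 7 below both (22.7%), and alphaTry alone passed. The median log2 fold change was 0.18. It became 1.09 and -0.43 without control replicates 1 and 2, and -0.09 and 0.86 without dmpnpaseKO replicates 1 and 2. Jon65Aiv, a chymotrypsin-like protease of the midgut, was at 14332 and 5546 nuclear TPM in the controls and at 6800 and 6087 in dmpnpaseKO (-0.47, adjusted p = 0.568). betaTry was at 3246 and 1402 against 6623 and 5388 (1.44, adjusted p = 0.150). The 7 gut markers summed to 20608 and 8334 in the controls and 19691 and 16316 in dmpnpaseKO, so the genotypes overlapped. Control replicate 2 was the lowest of the 4 libraries.

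Glycolysis and the vacuolar ATPase had medians near that of all tested genes, and endoplasmic reticulum translocation and folding had a lower one. Of 14 tested glycolytic enzymes 5 were above both controls (36.1% of all tested genes) and 2 below both (22.7%), with a median log2 fold change of 0.22. Ald1, the aldolase, was at 2341 and 3493 nuclear TPM in the controls and at 2402 and 3301 in dmpnpaseKO (-0.02, adjusted p = 0.972). Eno, enolase, was at 1295 and 1003 against 1299 and 1182 (0.11, adjusted p = 0.858). The 10 tested subunits of the vacuolar ATPase had a median of 0.06, which became -0.12 when cuticle and fat body genes were left out of the scaling. Endoplasmic reticulum translocation and folding had 0 of 10 above both controls (36.1% of all tested genes) and 4 below both (22.7%). Its median was -0.24, which was 1.74 with scaling on the rRNA pseudogenes and 0.09 without control replicate 1. Hsc70-3, the chaperone BiP of that compartment, was at 1079 and 1358 against 620 and 751 (-0.74, adjusted p = 0.255).

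Of 5 tested basement membrane genes 2 were above both controls (36.1% of all tested genes) and 0 below both (22.7%), with a median of 0.52. Col4a1, a chain of collagen IV, was at 1577 and 692 nuclear TPM in the controls and at 1323 and 2113 in dmpnpaseKO (log2 fold change 0.62, adjusted p = 0.478), so the genotypes overlapped. Of 13 tested histone genes, which are near-identical copies, 0 were above both controls (36.1% of all tested genes) and 3 below both (22.7%). Their median of -0.23 became 1.17 with scaling on the rRNA pseudogenes. The 4 tested immune effectors had 1 member on each side and a median of -0.12, whose sign changed in 5 settings. TotA, a secreted stress-response peptide of the fat body, was at 477 and 150 against 10.7 and 0 (-1.85, SE 0.51, adjusted p = 0.108), with no overlap. Both tested proteasome genes were short of the threshold, with Prosbeta6 at 128 and 142 against 81.0 and 67.9 (-0.43, adjusted p = 0.471).

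**Figure D4:**
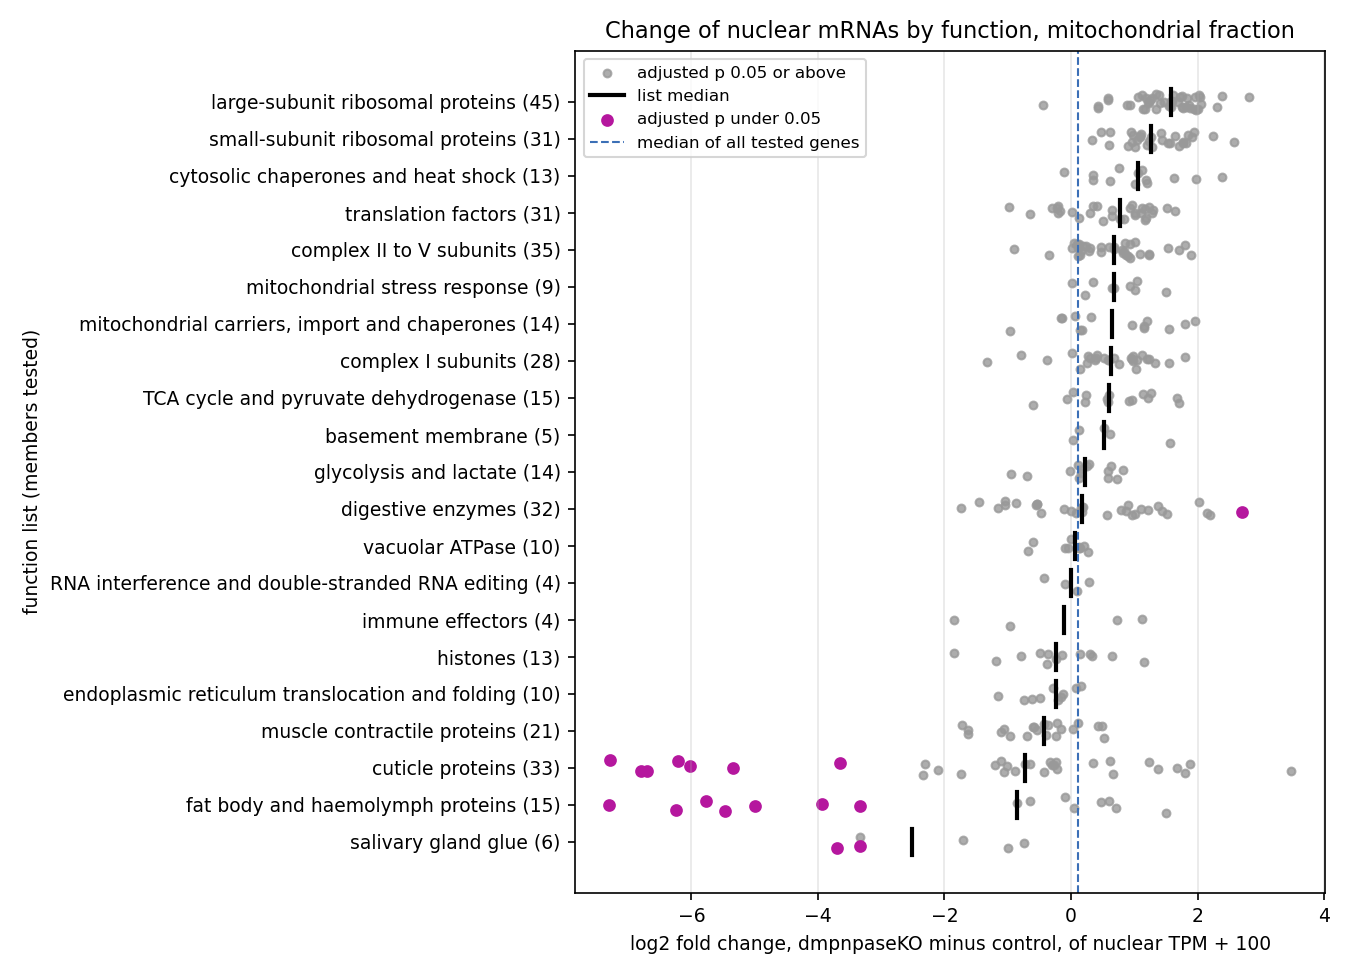
Log2 fold change (dmpnpaseKO minus control, nuclear TPM + 100) of every tested gene in the lists with 4 or more tested members, 1 point per gene, with filled magenta points past an adjusted p of 0.05, black bars at list medians and a dashed line at the median of all tested genes, 0.11. The large-subunit ribosomal proteins have the highest median, 1.57, and the points beyond -3 belong to the cuticle, fat body and glue lists.

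Markers of other cell types that the larvae hold were measured beside these results. The 4 haemocyte markers summed to 526 and 483 nuclear TPM in the controls and 141 and 97.9 in dmpnpaseKO. PPO2, a prophenoloxidase of crystal cells, was at 365 and 232 against 60.0 and 38.9 (log2 fold change -1.40, SE 0.33, adjusted p = 0.0864). The 6 neuronal markers summed to 130 and 321 against 143 and 168, and none of them reached the filter. Over the wider list of 11 neuronal genes the share was 0.0343% and 0.0863% against 0.0294% and 0.0288%, and 1 was tested. That gene, nrv3, a subunit of the sodium pump, was at 97.1 and 355 against 50.9 and 24.4 (-1.13, SE 0.51, adjusted p = 0.242), with no overlap. Of the epidermal markers, 32 genes, the sums were 77489 and 58478 in the controls and 3940 and 3514 in dmpnpaseKO. Lcp1, Lcp2, Lcp3 and Lcp4 made up most of the control sums. Of the 11 epidermal markers tested, 6 were below both controls (22.7% of all tested genes) and 4 above both (36.1%). Among those above was Cpr47Eb, singled out afterwards, at 196 and 104 against 727 and 393. The salivary gland markers summed to 1348 and 5114 against 274 and 196, with 3 of 4 listed at 0 in each dmpnpaseKO library. The part of these tissue differences in the comparison of genotypes was not tested. In cytosolic RNA, 12 and 15 of the 23 falling mRNAs were above 0 in the controls, where they took 1.56% and 6.14% of nuclear TPM. The dmpnpaseKO libraries of that fraction listed 6 and 1 of them above 0, with 0.0635% and 1.68%.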

How the data were processed

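RNA of the mitochondrial fraction was recovered with the J2 antibody, 2 libraries from control and 2 from dmpnpaseKO larvae. The authors quantified the reads with Salmon 0.11.3 against the BDGP6 cDNA set and deposited TPM values for 13970 genes, in which each library sums to 1000000. They separate neither strands nor depth, so no counting error can be given, and the step from transcripts to genes is not given in the sources used here. Groups follow the labels.

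From these TPM, mitochondrial genes and genes named as rRNA were removed, each library was rescaled to a nuclear sum of 1000000 and genes with a mean of at least 100 were analysed as log2(value + 100). limma 3.58.1 in R 4.3.3 (lmFit, then eBayes with the trend option) used the 4 mitochondrial libraries, with Benjamini-Hochberg adjustment over 1364 genes and a threshold of 0.05. Simulated data held these 1364 genes, 200 of them changed. The fit recovered 0% of log2 changes of 1, 60% of those of 2 and 95% of those of 4. False calls were 5.51% and 4.52% of calls at the last 2 sizes. The simulation drew each library independently, with the same spread in both genotypes. These rates may not hold for the real libraries, whose controls were less alike and whose same-numbered libraries deviated together. Symbols were matched for 13746 of 13970 identifiers, and 45 tested genes without a symbol are not named. Positions come from an Ensembl annotation of BDGP6. Figures were drawn with matplotlib 3.10.9.

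The 26 function lists and the members were chosen with earlier results of these data known. Genes named are CG11337, the 3 most abundant members of each list, the 15 largest falls and 15 largest rises past the threshold whose genotypes do not overlap (filled, where fewer pass, from genes with a mean of at least 1000), and up to 4 members past the threshold of each list. Others are said to be chosen after their values were seen or are the remaining genes past the threshold. Alternatives were other scalings (median-of-ratios factors, 8 rRNA pseudogenes, and, added after seeing the data, a nuclear sum without cuticle and fat body genes), pseudocounts of 10 and 1000, a filter of 500 and none, no intensity trend, all 8 libraries, the replicate number as a block, and each library left out. 1 gene that the rule names is not reported here.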

Additional observations from a re-analysis of the deposited data

Results flagged for a closer look

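The cytosolic libraries, which the comparison did not use, held 3 function lists whose share of nuclear TPM was higher in both dmpnpaseKO libraries than in both controls. The cytosolic libraries are sparse, with 954 and 2063 nuclear-encoded genes above 0 in the controls and 4704 and 39 in dmpnpaseKO. Tricarboxylic acid cycle enzymes with pyruvate dehydrogenase took 0.0887% and 0.366% in the control cytosol and 1.27% at the lower of the dmpnpaseKO libraries. Glycolytic enzymes took 0.184% and 0.431% in the controls and 1.49% at the lower dmpnpaseKO library. Muscle contractile proteins took 0.484% and 0.667% in the controls and 0.668% at the lower dmpnpaseKO library, a gap far smaller than the difference between the controls. None of these differences was tested, and with 39 genes above 0 the second dmpnpaseKO cytosol library rests each share on very few genes.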

How the results depend on the processing

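The fit as reported called 4 genes higher and 23 lower. The higher and lower counts were 1 and 19 with median-of-ratios factors, 1167 and 24 with scaling on the rRNA pseudogenes, 2 and 25 without cuticle and fat body genes in the scaling, 0 and 16 with a pseudocount of 1000, 60 and 31 with a filter of 500 (337 genes, 40 ribosomal protein genes among the higher) and 0 and 9 without a filter (11539 genes), where limma gave an unadjusted p under 0.05 for 810 and 193. All 8 libraries gave 4 and 16. Leaving out a library gave from 0 to 272 higher and from 0 to 206 lower, the upper ends without control replicate 1, where all 27 genes remained called, and 9 and 48 without control replicate 2. Each omission leaves a lone library that is assumed to vary like the other group. With the replicate number as a block the counts were 122 and 62, with 43 ribosomal protein genes among the higher. Same-numbered libraries deviated together (correlation 0.376 over 1364 genes), but with 2 pairs and labels that do not say what the numbers share, they only share a number. Of 21 list medians 10 changed sign in some setting, 7 of them with scaling on the rRNA pseudogenes. The cause of these differences was not tested. TPM give no depth, so genes at 0 cannot be given a limit, and 147 of the tested genes were at 0 in control replicate 2 against 17 in replicate 1.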

Other observations

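Some abundant genes outside the lists had separate genotypes. They were chosen after their values were seen and are given with no test. The acyl-CoA-binding proteins, which carry fatty acyl-CoA esters, were split. Acbp3 was at 1306 and 964 nuclear TPM in the controls and 252 and 0 in dmpnpaseKO, Acbp2 at 754 and 1004 against 319 and 141, and Acbp4 at 91.5 and 286 against 888 and 700. The fatty acid binding protein fabp was at 1067 and 1340 against 222 and 119. Vajk3, a cuticle-associated protein, was at 2499 and 2836 against 640 and 643. MtnA, a metallothionein that binds copper, was at 5542 and 4714 against 2464 and 980.

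Several enzymes lay on the other side. AOX1, an aldehyde oxidase, was at 229 and 100.4 nuclear TPM in the controls and 915 and 1048 in dmpnpaseKO. Alas, which starts haem synthesis in the mitochondrial matrix, was at 89.4 and 37.1 against 494 and 469. Cyp9b2, a cytochrome P450, was at 150 and 32.2 against 1310 and 744. Pgm1, phosphoglucomutase of glycogen metabolism, was at 205 and 78.2 against 654 and 700.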
